A study of Mus musculus with 5 samples.

Results

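The genes described are those for the mitochondrial ribosome and the respiratory chain, chosen by symbol: protein-coding RefSeq genes whose names begin with Mrpl or Mrps and a digit, Nduf, Uqcr, Sdha to Sdhd, Cox4 to Cox8, or Atp5. The rule took in 178 of the 21887 protein-coding genes placed on the autosomes and sex chromosomes. They divide into 49 genes named for the large and 29 for the small subunit of the mitochondrial ribosome, 41 for complex I and 8 for its assembly factors, 4 for complex II and 4 for its assembly factors, 8 for complex III, 18 for complex IV and 17 for complex V. H3K36me3, trimethylation of histone H3 at lysine 36, was profiled in wild-type B6 mouse mTEClo, medullary epithelial cells of the thymus sorted as EpCAM+ UEA-1+ Ly51lo CD80lo from individual mice. There were 2 ChIP libraries, series 1 and series 2, and 3 input libraries without antibody, of which 2 belonged to series 1 and 1 to series 2. For each ChIP library the authors deposited a list of broad peaks, called against the input of that series.

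Mitochondria make ATP by oxidative phosphorylation. Complexes I and II pass electrons from NADH and succinate to coenzyme Q, complex III passes them on to cytochrome c, complex IV reduces oxygen, and complex V, the ATP synthase, uses the resulting proton gradient. Most subunits are encoded in the nucleus, and the mitochondrial ribosome translates the few that the mitochondrial genome still encodes, so the genes form a housekeeping programme shared by nearly all cell types. H3K36me3 is laid down by SETD2, which travels with elongating RNA polymerase II, and is therefore a mark of the bodies of transcribed genes.

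The lists held 7231 peaks in series 1 and 10243 in series 2 and carried no read counts, so the depth cannot be given, and where no peak is listed none was detected. Peaks were wide in series 1, with a median of 483 bp, and narrow in series 2, with a median of 222 bp. Of 10 medullary epithelial markers 4 had a peak in either series (Krt5, Cd80, Relb and Trp63), while Epcam, Krt14 and Aire had none. None of 8 thymocyte, 3 B cell, 2 fibroblast and 2 endothelial markers had one, and 1 of 4 cortical epithelial (Ly75) and 2 of 3 myeloid markers (Itgam and Csf1r) did. Of all protein-coding genes 27.4% had a peak in either series. The markers are few and were not set beside genes of like length, so these counts do not measure the purity of the cells. With 1 ChIP library per series, and with genes that are not replicates of a condition, no significance test was made, and the exact 95% binomial intervals given cover counting error only. Which mouse gave which library is not labelled, and differences between the libraries may be technical as well as biological.

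Peaks lay in a minority of the mitochondrial genes. In series 1, 22 of 178 had at least 1 bp of a peak between their annotated ends (12.4%, exact binomial 95% interval 7.91 to 18.1%), against 16.3% of all protein-coding genes. In series 2 there were 23 (12.9%, 8.37 to 18.8%), against 19.5%. In either series there were 42 (23.6%, 17.6 to 30.5%), against 27.4%, and in both series 3 (1.69%, 0.349 to 4.85%), against 8.42%. Without regard to length, then, the mitochondrial genes were hit less often than the background in every one of these counts, and the intervals for series 1 and for either series include the background.

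The mitochondrial genes are short, and short genes were rarely hit. Their median span was 7.50 kb, from 0.471 to 121.7 kb, against 17.2 kb for all protein-coding genes. All genes were therefore divided into 10 classes of equal size by length, and each mitochondrial gene was given the hit share of its class. Summed, these shares come to 12.4 genes in series 1, 14.8 in series 2, 22.6 in either and 4.53 in both. The observed counts were 1.78, 1.55, 1.85 and 0.663 times these values. At 1 bp, genes with a peak in either single library were thus more frequent than genes of like length, and genes hit in both were fewer. For series 2 and for both series the side changed with the rule. With at least 1% of the span covered, 3 genes in both series stood against 2.47. Among the 38 genes over 5 kb from any other coding gene, 3 in series 2 stood against 3.73. For series 1 and for either series the counts stayed above genes of like length under every rule. At scores of at least 50 this rested on 2 genes, against 1.17 and 1.56. Peaks with a score of at least 20, the authors' whole-number value for each peak, left 15 genes in series 1 (10.9% of all protein-coding genes were hit by this rule), 8 in series 2 (9.01%), 22 in either (16.6%) and 1 in both (3.30%), where genes of like length give 8.18, 6.17, 12.7 and 1.69.

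The excess over genes of like length was seen among the short and middle-sized genes. Of 87 mitochondrial genes in the 3 shortest classes (up to 7.38 kb), 9 had a peak in either series, against 2.76 from genes of like length. In the next 3 classes (up to 24.6 kb) 21 of 73 had one, against 11.6. Among the 18 longer genes 12 had one, against 8.31; 8 of these were hit in series 1 (5.09 from genes of like length), 4 in series 2 (5.92) and none in both (2.70). For the long genes the libraries thus lay on opposite sides of genes of like length.

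**Figure D1:**
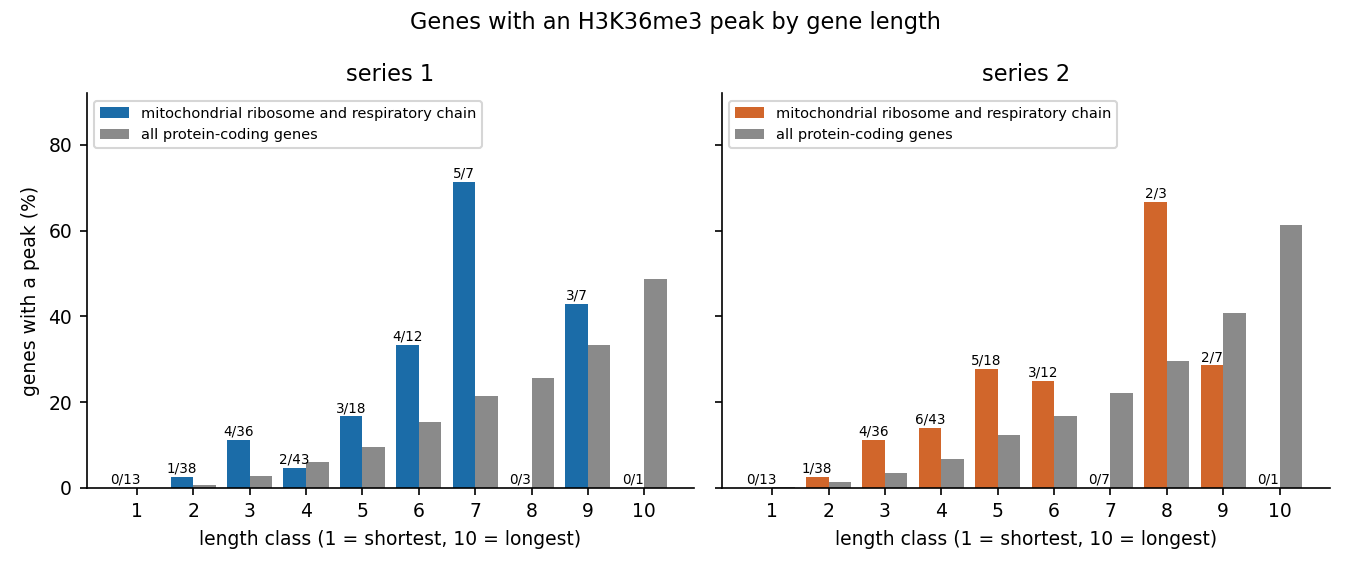
Share of genes with an H3K36me3 peak (y axis, %) in 10 classes of gene length (x axis), for the mitochondrial genes (coloured bars, with genes hit over genes in the class) and all protein-coding genes (grey bars), in series 1 (left) and series 2 (right). Coloured bars are above grey ones in classes 2, 3, 5 and 6 of both panels; classes 8 and 10 hold 3 and 1 mitochondrial genes.

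The genes hit in the 2 libraries were mostly different. The 3 shared genes are 13.6% of those hit in series 1 and 13.0% of those hit in series 2, against 51.6% and 43.2% among all protein-coding genes. Sharing also depends on length: among genes of like length that were hit in series 1, the share also hit in series 2 comes to 7.41 genes for these 22, and for the 23 hit in series 2 it comes to 5.55.

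Mrpl50, Mrps30 and Ndufa7 were the 3 genes with a peak in both series. Their promoters, from 250 bases before to 49 after the annotated 5′ end base, are shown because they are the only ones of the 178 genes with a peak in both libraries. RefSeq sequence of GRCm38.p6, the assembly of mm10, is given 5′ to 3′ on the gene's strand, and capitals mark a match to ATGGCGGC, letters within the recognition sequence of the transcription factor YY1.

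Mrpl50, chr4:49521034-49521333, minus strand: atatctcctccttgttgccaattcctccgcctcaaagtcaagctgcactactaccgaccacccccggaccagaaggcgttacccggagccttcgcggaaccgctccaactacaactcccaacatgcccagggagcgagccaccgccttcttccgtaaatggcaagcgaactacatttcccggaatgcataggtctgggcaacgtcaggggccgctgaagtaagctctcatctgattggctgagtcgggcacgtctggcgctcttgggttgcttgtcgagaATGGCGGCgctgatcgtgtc
Mrps30, chr13:118387203-118387502, minus strand: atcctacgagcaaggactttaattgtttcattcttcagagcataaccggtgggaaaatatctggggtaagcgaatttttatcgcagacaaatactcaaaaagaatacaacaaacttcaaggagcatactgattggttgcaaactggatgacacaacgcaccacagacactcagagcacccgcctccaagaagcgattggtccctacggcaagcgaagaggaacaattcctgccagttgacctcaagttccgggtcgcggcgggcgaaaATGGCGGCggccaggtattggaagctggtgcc
Ndufa7, chr17:33824322-33824621, plus strand: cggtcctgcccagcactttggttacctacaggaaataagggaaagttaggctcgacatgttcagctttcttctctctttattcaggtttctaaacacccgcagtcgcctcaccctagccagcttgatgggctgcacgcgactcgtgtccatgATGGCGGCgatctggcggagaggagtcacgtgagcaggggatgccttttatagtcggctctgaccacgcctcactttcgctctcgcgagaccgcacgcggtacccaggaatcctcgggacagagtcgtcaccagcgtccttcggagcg

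Each of the 3 windows holds 1 such match, which begins 30 bases after the 5′ end base in Mrpl50, 18 bases after it in Mrps30 and 98 bases before it in Ndufa7. None of the 3 windows lay under a peak. ATGGCGGC was chosen after the data were seen and was searched on both strands, as were 3 other motifs. The promoter table had an entry for 151 of the 178 genes, and 20 of them (13.2%) held ATGGCGGC or its reverse complement, against 613 of 17492 protein-coding genes with an entry (3.50%). Among the 38 hit mitochondrial genes with an entry it was 8 (21.1%), against 5.96% of all hit genes with an entry. A gene counted where any of its listed windows held the letters.

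The other motifs were counted in the same windows. CCGGAAG, letters of the binding sequence of ETS factors such as GABPA, was found in 48 of 151 mitochondrial promoters (31.8%) and in 12.9% of all; among hit genes it was in 26.3% of the mitochondrial and in 18.5% of all. TGCGCA, letters of the binding sequence of NRF1, a regulator of respiratory genes, was found in 42 (27.8%) and in 11.0% of all; among hit genes it was in 31.6% and 15.3%. TATAAA, the letters of the TATA box, was found in 14 (9.27%), against 14.8% of all; among hit genes it was in 15.8%, against 9.16%. A match describes these letters only and is no binding site.

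Ndufa7, an accessory subunit of the peripheral arm of complex I, had its series 2 peak wholly inside its series 1 peak. It lies on chromosome 17 from 33824572 to 33838316 (mm10). The series 1 peak, from 33831230 to 33832729, was 1500 bp wide with an authors' score of 52, and the series 2 peak, from 33831264 to 33831491, was 228 bp wide with a score of 30. Both are near the middle of the gene, 7.41 and 6.81 kb from its 5′ end. They covered 10.9% of the gene in series 1 and 1.66% in series 2, a mean of 6.29% ± 6.54 (SD, n = 2). The meaning of the score is not stated; 5.77% of the peaks in coding genes reached 52 in series 1, and 12.7% reached 30 in series 2. Another coding gene lies 10 bp from Ndufa7, but neither peak reaches it.

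Mrpl50, a protein of the large ribosomal subunit on chromosome 4 from 49512597 to 49521083, was marked at its 3′ end in both libraries. The series 1 peak covered 7.40% of the gene with a score of 24. The series 2 peak, 474 bp wide with a score of 12, had 165 bp within the gene, 1.94% of it, and ran beyond the annotated 3′ end. The peaks shared 70 bp, and the mean covered share was 4.67% ± 3.86 (SD, n = 2). Nearly all series 2 peaks in coding genes (98.5%) had a score of at least 12, so this one is among the lowest.

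Mrps30, on chromosome 13 from 118380110 to 118387252, was covered over 11.7% in series 1 and 3.15% in series 2, a mean of 7.45% ± 6.08 (SD, n = 2). The peaks, with scores of 18 and 14, lay 2368 bp apart, that of series 1 in the middle and that of series 2 towards the 3′ end. Its product carries a small-subunit name but sits in the large subunit of the mammalian mitochondrial ribosome. No other coding gene lies within 5 kb of it. Peaks of the libraries thus overlapped in 2 of the 3 shared genes, against 324 of 1843 genes hit in both series overall (17.6%). Of these 1843 genes, 1637 fall in length classes 7 to 10, the longest, which hold none of the 3 shared genes. The overlap was not set beside genes of like length, so these shares are not directly comparable.

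**Figure D2:**
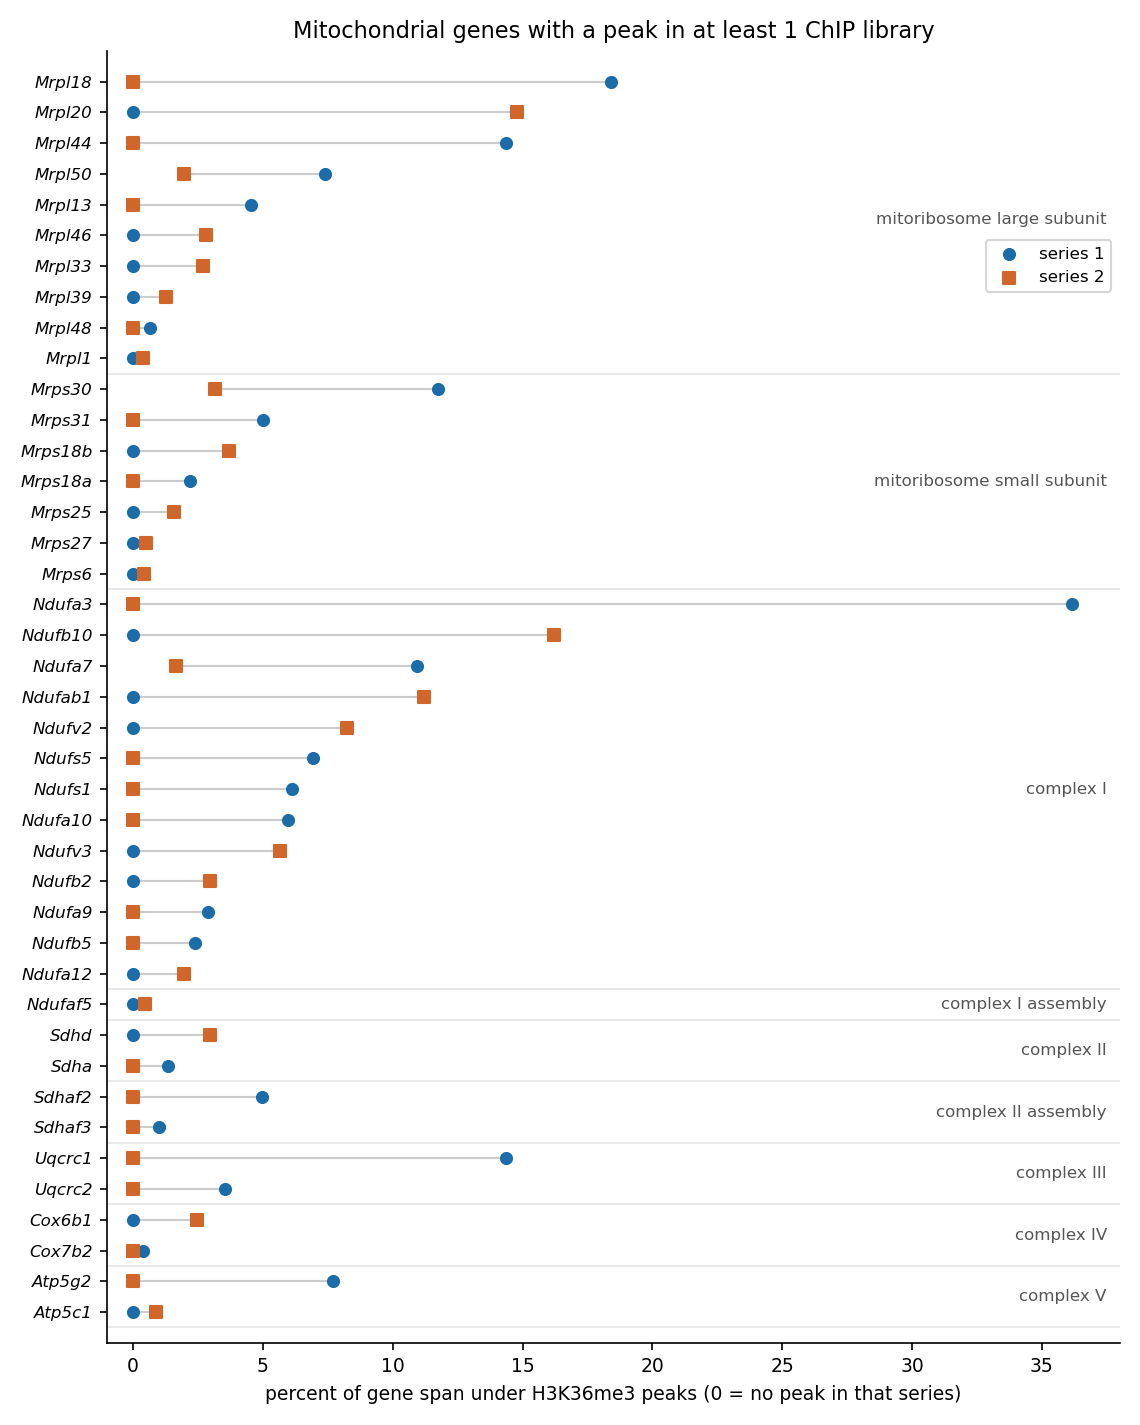
Percent of the gene span under H3K36me3 peaks (x axis) for 41 mitochondrial genes with a peak in at least 1 library (y axis, grouped by complex), in series 1 (circles) and series 2 (squares); 0 means no peak in that library. All but Mrpl50, Mrps30 and Ndufa7 have 1 of their points at 0, and Ndufa3 reaches 36.1% in series 1.

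Among the 49 genes of the large ribosomal subunit, 5 were hit in series 1, against 2.74 from genes of like length, and 6 in series 2, against 3.33. These ribosomal proteins assemble with mitochondrial rRNA, and their genes are scattered over the genome. Mrpl18 had the best covered body, with 18.4% under 1 peak of 1186 bp in series 1, rank 23 of all 21887 genes in that list, and no peak in series 2. Mrpl44, which has a ribonuclease III-like fold, had 14.4% in series 1 and none in series 2. Mrpl20 showed the reverse, with no peak in series 1 and 14.8% under a peak of 880 bp in series 2, where it ranked 18. Apart from Mrpl50, the rest lay at or under 4.53%: in series 1 alone, Mrpl13 with 4.53% and Mrpl48 with 0.632%, and in series 2 alone, Mrpl46 with 2.80%, Mrpl33 with 2.68%, Mrpl39 with 1.28% and Mrpl1 with 0.381%.

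Genes with a small-subunit name were close to genes of like length in series 1, with 3 of 29 hit against 2.85, and somewhat above in series 2, with 5 against 3.42. The 3 of series 1 were Mrps30, Mrps18a and Mrps31, and the products of Mrps30 and Mrps18a are known from the large subunit of the mammalian ribosome. With scores of at least 20 the group had 2 genes in either series, against 2.93 from genes of like length, where at any score it had 7 against 5.06. Mrps31 had 2 peaks in series 1 over 4.99% of its span, 1 of them reaching only 99 bp into its 3′ end. Mrps18a and Mrps18b, 2 of 3 paralogues that share the name, were hit in different libraries, Mrps18a over 2.18% in series 1 and Mrps18b over 3.70% in series 2, while Mrps18c had no peak. Apart from Mrps30, the others were Mrps25 with 1.56%, Mrps27 with 0.476% and Mrps6 with 0.405%, in series 2 alone.

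Low scores were common among the ribosomal peaks of series 2. Of 11 such peaks 7 had a score of 12, and the median was 12. The 10 complex I peaks of the same list ranged from 16 to 31 with a median of 21. Over all the mitochondrial genes, 8 of 25 series 2 peaks had a score of 12. Of the series 2 peaks in all coding genes, 98.5% reached 12 and 68.3% reached 13. In series 1 the 9 ribosomal peaks ranged from 17 to 47 (median 21) and the 10 complex I peaks from 12 to 77 (median 23).

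Complex I was hit most often relative to gene length among the groups with over 10 genes. Among the 41 genes grouped here by name, series 1 hit 7, against 2.70 from genes of like length, and series 2 hit 8, against 3.18. The 41 include Ndufa4, whose product is known from complex IV, and its paralogue Ndufa4l2, both without a peak. In either series there were 14, against 4.99 (34.1%, exact binomial 95% interval 20.1 to 50.6%). Without regard to length, 27.4% of all protein-coding genes were hit in either series, which lies within this interval. The complex I shares of 17.1% in series 1 and 19.5% in series 2 were near the 16.3% and 19.5% of all protein-coding genes. Ndufa7 alone was in both. Complex I is the largest of the respiratory complexes, with a peripheral arm that oxidises NADH and a membrane arm that pumps protons.

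Several of the nuclear genes encode the conserved core of the peripheral arm, a grouping made after the values were seen. Ndufs1, the largest iron-sulfur subunit of this core, had 2 peaks in series 1 over 6.14% of its span and none in series 2. Ndufv2, an iron-sulfur subunit of the NADH-oxidising module, had none in series 1 and 1 of 1874 bp in series 2, over 8.23%. Ndufv1, Ndufs3, Ndufs7 and Ndufs8 had no peak within their ends.

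The other complex I genes named here with a peak encode accessory subunits. Ndufa3, a small subunit of the membrane arm on chromosome 7 from 3617347 to 3620165, was the best covered of all 178 genes. A single peak of 1019 bp in series 1 took up 36.1% of its 2.82 kb, the third highest covered share of any protein-coding gene in that list, and its score of 77 was reached by 2.00% of the peaks in coding genes. Series 2 had no peak in it. In series 2 the best covered were Ndufb10, a membrane arm subunit of 2.36 kb, with 16.2% (rank 15), and Ndufab1, the mitochondrial acyl carrier protein, with 2 peaks over 11.2% (rank 38). Neither had a peak in series 1.

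The remaining accessory genes were covered less. In series 1 alone, Ndufs5 had 6.94%, Ndufa10 5.95% under 3 peaks, Ndufa9 2.87% and Ndufb5 2.39%. In series 2 alone, Ndufv3 had 5.66%, Ndufb2 2.97% and Ndufa12 1.94% under 2 peaks. Ndufa10 was the gene with the most peaks, centred at 29.1, 49.1 and 62.9% of its length from the 5′ end. Ndufb4 and its near-copies Ndufb4b and Ndufb4c, between which reads could be divided, had none, where genes of like length give 0.0608 in either series. Of 8 assembly factors named Ndufaf, only Ndufaf5, which hydroxylates a complex I subunit, had a peak, in series 2 over 0.465% with a score of 12.

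**Figure D3:**
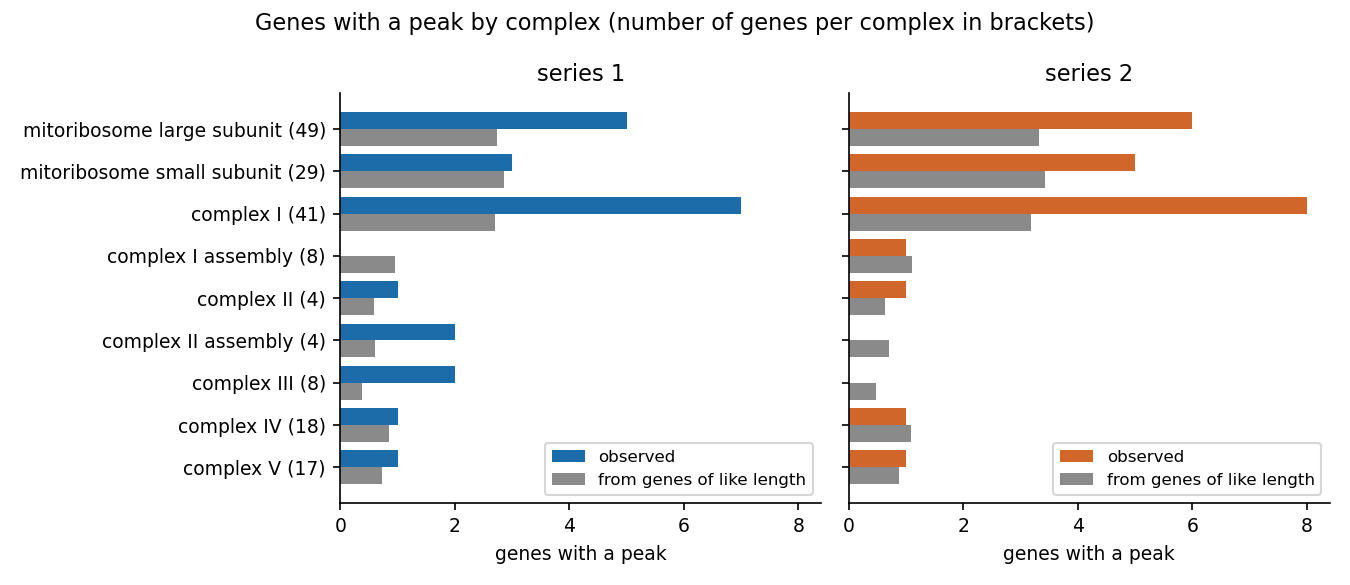
Number of genes with a peak (x axis) in each complex (y axis, number of genes in brackets) in series 1 (left) and series 2 (right): observed counts (coloured) and the sum of hit shares of all genes in the same length classes (grey). Complex I has the longest coloured bars, 7 and 8 genes, against grey bars of 2.70 and 3.18.

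Complex II, succinate dehydrogenase, has no subunit encoded in the mitochondrial genome. Sdha, its flavoprotein, had 1.35% under a peak in series 1 and none in series 2, and Sdhd, a membrane anchor, had none in series 1 and 2.97% in series 2, with a score of 37. The iron-sulfur subunit Sdhb and the other anchor Sdhc had no peak. Of 4 assembly factors, Sdhaf2, which attaches FAD to Sdha, had 4.95% in series 1 with a score of 46, and Sdhaf3, which acts in maturation of Sdhb, had 0.988%, both with none in series 2.

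In complex III both large core proteins were marked in series 1, Uqcrc1 over 14.4% under the widest series 1 peak of the set (1865 bp, score 33) and Uqcrc2 over 3.54%. No gene of complex III had a peak in series 2. The remaining 6 genes of complex III had none in either library.

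Complexes IV and V stood near genes of like length. In complex IV each series hit 1 of 18 genes, where genes of like length give 0.847 for series 1 and 1.09 for series 2: Cox7b2 over 0.369% of its 105.4 kb in series 1, and Cox6b1, a subunit on the intermembrane side, over 2.47% in series 2. Of 8 isoforms known for restricted expression (Cox4i2, Cox6a2, Cox6b2, Cox7a1, Cox7b2, Cox8b, Cox8c and Ndufa4l2) 1 was hit, where genes of like length give 0.802: Cox7b2, whose human counterpart is testis-specific. In complex V each series hit 1 of 17 genes, where genes of like length give 0.724 and 0.875. Atp5g2, 1 of 3 genes for the c subunit of the rotor ring, had 7.69% in series 1, and Atp5c1, the γ subunit of the central stalk, had 0.895% in series 2. Atp5g1 and Atp5g3 had no peak, and neither did Atp5a1 and Atp5b, which encode the α and β subunits of the catalytic head.

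Among the 10 longest of the genes, Mrps28 (121.7 kb), Ndufaf2 (106.1 kb), Ndufs4 (100.3 kb) and Mrps9 (54.5 kb) had no peak in either library. In the longest class of all genes, where Mrps28 falls, series 1 hit 48.7% and series 2 hit 61.4%. The other 6, Cox7b2, Sdhaf3, Mrps27, Mrpl48, Mrpl1 and Mrps6, had 1 each, in 1 library. A further 8 genes without a peak in the span had one within 1 kb of an end (4.49%, against 0.950% of all protein-coding genes and 2.22 genes from the length classes): Mrps14, Mrpl24, Cox7a1 and Mrps10 in series 1, Ndufa5, Ndufs7 and Mrpl42 in series 2, and Mrpl19 in both. Another coding gene lay within 1 kb of 59.6% of the mitochondrial genes, against 31.6% of all. Whether these peaks outside the span lie in such a neighbour was not examined.

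Covered shares were also set beside genes of like length. At least 5% of the span lay under peaks in 11 mitochondrial genes in series 1, against 1.84% of all genes and 3.73 genes from the length classes, and in 5 in series 2, against 0.937% and 2.30. At least 10% was reached by 6 in series 1, against 0.525% and 1.52, and by 3 in series 2, against 0.233% and 0.697. A peak of a given width covers more of a short gene, which the length classes take into account only in steps.

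The peaks in mitochondrial genes of series 1 were wider than those in coding genes at large, with a median of 821 bp over 26 peaks against 523 bp, and in series 2 they were alike, with 225 bp over 25 peaks against 223 bp. Median scores were 23 against 21 in series 1 and 17 against 16 in series 2. Scores reached 20 in 18 of the 26 series 1 peaks (69.2%, against 57.8% in coding genes) and in 9 of the 25 series 2 peaks (36.5% in coding genes).

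By the hit rule every peak counted here reached into a gene span. None of the 151 genes with an entry had a promoter window under a peak of either list. Such windows were rare among all coding genes with an entry too (0.131%), so this is no trait of the mitochondrial genes. The peaks nearest to a 5′ end were those of Ndufaf5, centred 0.575 kb from it, and of Sdhd, at 0.964 kb. With the span divided into 3 equal parts from 5′ to 3′, 3, 10 and 8 of 21 series 1 peaks were centred in the successive parts, and 5, 8 and 10 of 23 series 2 peaks (Mrpl50 in series 2 and the second Mrps31 peak are centred beyond the 3′ end). Median positions were 61.1% and 63.3% of the length, against 60.7% and 58.7% for peaks of all coding genes, so the placement was much like that of other genes.

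**Figure D4:**
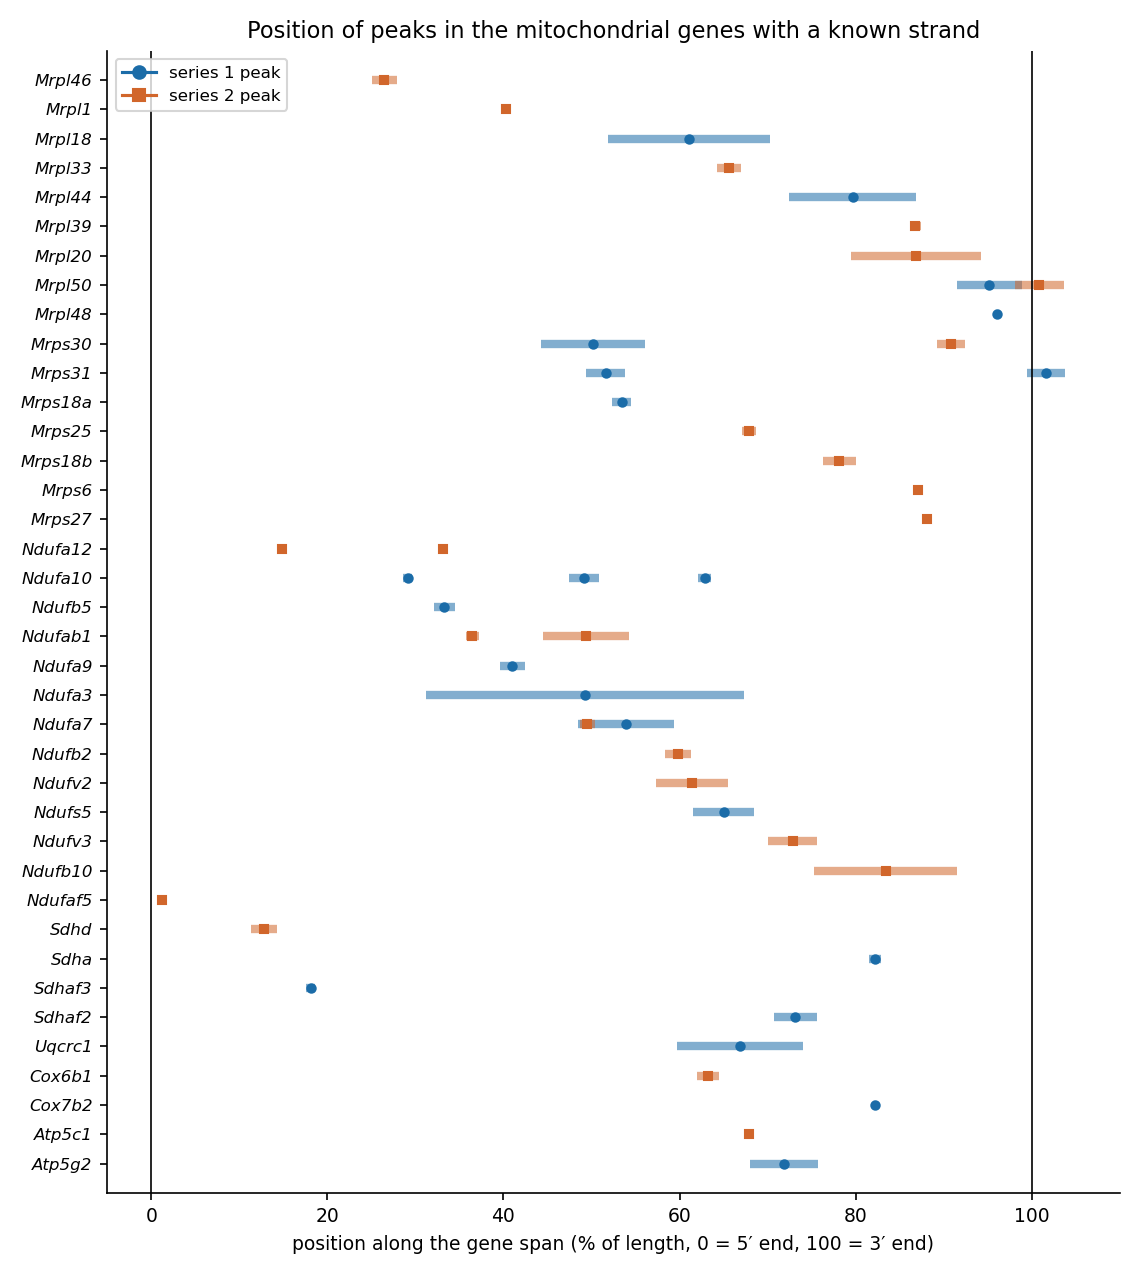
Position of each peak along the gene (x axis, percent of gene length, 0 the 5′ end and 100 the 3′ end) for the 38 hit mitochondrial genes with a known strand (y axis), series 1 in blue and series 2 in orange; points are peak centres and bars peak widths. Most centres lie between 30 and 100%, and Ndufaf5 is the only gene with a centre within 10% of the 5′ end.

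The mitochondrial genes lie in dense surroundings. Another coding gene lay within 1 kb of 106 of the 178 (59.6%), against 31.6% of all coding genes, and 38 overlapped one. No peak that reached into the span of a mitochondrial gene lay in a second coding gene. However, 1 in Ndufs1 also lay in the non-coding gene Ino80dos and that of Mrpl33 in Gm38424. The 25 annotated pseudogenes with the same names, to which reads of the parent genes can map, had no peak, and the lists held no peak on the mitochondrial genome with its 13 protein-coding genes.

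Other mitochondrial gene lists, all read by the same 1 bp rule, are set beside these genes. Of 42 genes listed for mitochondrial translation and mitochondrial DNA expression, series 1 hit 8, against 5.26 from genes of like length, and series 2 hit 10, against 5.98. The list also held Polg, the polymerase that replicates mitochondrial DNA, which was among those hit in series 2. Tufm, the mitochondrial elongation factor Tu, had no peak in series 1 and 2 in series 2, which took up 26.1% of its 3.46 kb; it was named after its value was seen. The members hit in both libraries were Ptcd2, with 7.07% and 1.99% in series 1 and 2, and Mterf3, with 5.70% and 0.815%. Of 19 genes listed for the citric acid cycle, 4 and 9 were hit, against 3.79 and 4.41, with Ogdh and Sucla2 in both. This list held Dlat, a pyruvate dehydrogenase gene outside the cycle itself, which was among those hit in series 2. Of 34 protein import genes, 4 and 5 were hit, against 2.52 and 2.995, with Hspa9, the matrix chaperone of the import motor, in both at 3.88% and 4.49%.

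Assembly factors whose names fall outside the symbol rule numbered 37, of which series 1 hit 4 and series 2 hit 6, against 4.09 and 4.93, with Cox15 and Cox10, enzymes of heme A synthesis, in both. Coenzyme Q synthesis genes numbered 13, of which 2 and 5 were hit, against 2.28 and 2.59, with Coq3 in both. The list of mitochondrial tRNA synthetase genes had 1 and 7 of 22 hit, against 4.41 and 5.22, and none in both. It also held Gatb, which is not a synthetase gene and was among those hit in series 2.

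Regulators of mitochondrial biogenesis are transcription factors and coactivators of these genes. Of 17 such regulators, with a median length of 55.5 kb, series 1 hit 7 and series 2 hit 6, against 4.80 and 5.77, and 5 were in both, against 2.76. Gabpa, the DNA-binding subunit of the ETS factor GABP, was covered over 7.70% and 0.755% in series 1 and 2, its partner gene Gabpb1 over 2.40% and 0.396%, and Zfp143, a zinc finger activator, over 2.48% and 0.653%. Cytosolic ribosomal protein genes, which are shorter still (median 3.15 kb), numbered 86; each series hit 5 of them, against 1.22 and 1.85, and 1 was in both.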

How the data were processed

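H3K36me3 ChIP of sorted mTEClo gave 2 libraries with 3 inputs. Bowtie2, SAMtools and MACS2 on mm10 are named, without versions, in the submitters' processing notes. Their settings were not stated. From the peak names in the deposited files, peaks of series 1 were called against 2 inputs together and those of series 2 against 1, each on a single ChIP library. The authors deposited for each broad peak its position and a score, a whole number whose meaning is not stated; scores were used only within a list. Read-level input data were not used here, and depth is unknown.

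Gene spans came from RefSeq on GRCm38.p6, the assembly of mm10, and strands and promoters from the RefSeq promoter table. A gene was called hit at 1 bp of a peak. Length-class values sum the hit share of all genes in each gene's class. Shares have exact Clopper-Pearson intervals. The overlap and length-class code was tested on simulated data. The genes and lists were chosen with earlier results of these data known. Genes were named by rule: every gene hit in both series, up to 15 per single series by covered share, the 10 longest, restricted isoforms, Sdh subunits, and up to 3 genes hit in both per related list; the remaining hit genes, those with a peak only near an end, and Tufm were added after their values were seen. The values of 1 gene are not reported here. Of the related lists, Coa1 was not matched. The tools were Python 3.11.15 with scipy 1.17.1, pandas 2.3.3 and numpy 2.4.6. Alternatives changed the score minimum, overlap rule, gene span, peak width, neighbouring genes, number of length classes and libraries.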

Additional observations from a re-analysis of the deposited data

How the results depend on the processing

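Counts of hit genes in series 1, series 2, both and either were 22, 23, 3 and 42 by the main rule. They changed little with an overlap of 100 bp, peak midpoints, or peaks in no other coding gene (an alternative chosen after seeing the data). With at least 1% of the span they were 19, 18, 3 and 34, against 10.2, 10.2, 2.47 and 18.0 from genes of like length. With spans extended by 1 kb they were 27, 27, 4 and 50, against 13.3, 16.4, 4.84 and 24.9. The length-class values moved little with 20 or 50 length classes. With scores of at least 20 the counts were 15, 8, 1 and 22, against 8.18, 6.17, 1.69 and 12.7 from genes of like length. With scores of at least 50 they were 2, 0, 0 and 2, against 1.17, 0.496, 0.102 and 1.56. With peaks of at least 300 bp series 2 had 7, against 5.196, and both had 1, against 1.96. For the 72 genes over 1 kb from any other coding gene they were 9, 9, 1 and 17, against 5.58, 6.63, 2.30 and 9.91, and for the 38 over 5 kb from one, 7, 3, 1 and 9, against 3.19, 3.73, 1.42 and 5.51. Series 2 thus lay below genes of like length at 5 kb and at scores of at least 50. These settings test fewer peaks or genes. At scores of at least 20, genes hit in either series numbered 5 for the large ribosomal subunit (2.83 from genes of like length), 2 for the small (2.93, where the main 7 stood above 5.06), 9 for complex I (2.74), 0 for its assembly factors (0.948), 1 for complex II assembly factors (0.602) and 1 each for complexes III (0.396), IV (0.916) and V (0.747). Leaving out a library turns the counts in both and in either into those of the other, 22 to 23. At 1% of the span the count in both series, 3, stood above the 2.47 from genes of like length, the opposite of its side at 1 bp; the cause was not tested. Covered shares of Mrpl50, Mrps30 and Ndufa7 were 7.40, 11.7 and 10.9% in series 1 alone and 1.94, 3.15 and 1.66% in series 2 alone. No paired analysis was possible because the input libraries have no values here to pair with the ChIP libraries. Depth is unknown, so the lack of a peak cannot be weighed.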
